A study of Mus musculus with 10 samples.

Results

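The IL-12 family of cytokines and their receptors was followed in mouse splenic dendritic cells (DCs) that had or had not been exposed to CpG, by way of 9 genes: the cytokine subunits Il12a, Il12b, Il23a, Il27 and Ebi3 and the receptor chains Il12rb1, Il12rb2, Il23r and Il27ra. They are 9 of the 21994 RefSeq genes with a probe set that names exactly 1 gene. Each was read from the probe set of that kind with the highest mean over the 10 arrays. All 9 were among the 13298 genes tested, those whose value in 2 or more of the 10 arrays exceeded the median of that array. Il12a was above that median in the 6 CpG arrays alone, and Il23r in the 3 CpG arrays of wild-type mice alone. These genes therefore entered the test through the groups where they were high.

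CD11c+ cells were taken from spleens with magnetic beads 4 h after mice received 100 µg of CpG, a DNA that Tlr9 recognises, or vehicle. The groups were C3ar1-/-C5ar1-/- mice given CpG (DRKO CpG, n = 3), the same genotype without CpG (DRKO unstimulated, n = 2), wild-type mice given CpG (WT CpG, n = 3) and wild-type mice without CpG (WT unstimulated, n = 2). DRKO mice lack C3ar1 and C5ar1, receptors for the complement fragments C3a and C5a, in the whole animal, so a difference between genotypes need not arise within DCs. One array was made per sample, and the labels do not say that the arrays of a group came from separate mice, so p-values measure the spread between these samples only. Mouse age and sex were not given in the sources used here.

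The cytokines of this family are pairs of chains. IL-12 joins the Il12a and Il12b products and signals through Il12rb1 and Il12rb2, chiefly to Stat4 in T cells and NK cells, where it drives interferon gamma. IL-23 joins the Il23a product to the same Il12b chain and signals through Il12rb1 and Il23r to Stat3, which sustains IL-17-producing cells. IL-27 joins the Il27 and Ebi3 products and signals through Il27ra and the shared chain Il6st. DCs are a main source of all these cytokines after microbial sensing.

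The upstream sequences of Il12b, Ebi3 and Il23r are shown because these members rose after CpG in both genotypes. RefSeq promoter entries (GRCm38.p6) were matched for 5 of the 9 members. The 250 bases before the start site are given 5′ to 3′ on the strand of the gene. Capitals mark matches to the kappa B consensus, the Rel half-site and the C/EBP, IRF and AP-1 motifs.
Il12b chr11:44399813-44400062 (+): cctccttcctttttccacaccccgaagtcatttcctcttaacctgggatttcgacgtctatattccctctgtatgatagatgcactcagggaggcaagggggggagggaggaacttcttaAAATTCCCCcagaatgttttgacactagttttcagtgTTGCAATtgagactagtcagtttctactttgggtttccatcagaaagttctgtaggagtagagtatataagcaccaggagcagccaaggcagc
Ebi3 chr17:55952373-55952622 (+): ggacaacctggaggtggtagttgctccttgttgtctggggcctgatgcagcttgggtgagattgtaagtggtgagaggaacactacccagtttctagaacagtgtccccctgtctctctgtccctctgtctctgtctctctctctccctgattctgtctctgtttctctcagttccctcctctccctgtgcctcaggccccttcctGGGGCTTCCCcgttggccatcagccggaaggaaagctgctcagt
Il23r chr6:67491856-67492105 (-): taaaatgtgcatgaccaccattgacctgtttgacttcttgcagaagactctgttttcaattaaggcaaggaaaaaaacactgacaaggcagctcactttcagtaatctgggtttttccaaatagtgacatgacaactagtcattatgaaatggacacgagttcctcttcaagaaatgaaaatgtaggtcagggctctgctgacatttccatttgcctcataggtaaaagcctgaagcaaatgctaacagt
In Il12b, the shared chain of IL-12 and IL-23, the Rel half-site GGGGAATTT lay on the opposite strand from 130 to 122 bases before the start, and the C/EBP motif TTGCAAT on the strand of the gene from 93 to 87 bases before it. Of 32851 promoters of this length, searched on both strands, 0.231% held the Rel half-site and 1.96% held the C/EBP motif. Both were searched as fixed letters with 0 positions of choice, and whether they were first defined in Il12b was not examined. These shares therefore do not measure how unusual the Il12b matches are. The kappa B consensus matched on both strands of the same stretch in Ebi3, 44 to 35 bases before the start, and 7.25% of promoters held a match. That consensus was adopted after a looser form, GGGNNNNNCC, had been searched, which matched 45.8% of all promoters and, among the 3 promoters shown, those of Ebi3 and Il23r, and its matches are not marked by capitals. The 5 motifs other than the looser form had no match in the Il23r window, and neither the IRF motif GAAANNGAA (7.13% of promoters) nor the AP-1 motif TGANTCA (6.75%) matched any of the 3 windows. A match describes letters only.

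The samples carried some differences that the groups do not name. All 4 conventional DC markers were above the array median in all 10 arrays, but their mean log2 level differed between groups. It was 9.51 to 9.59 in DRKO CpG arrays and 9.90 to 9.95 in DRKO unstimulated arrays. In WT CpG arrays it was 9.25 to 9.39, and in WT unstimulated arrays 9.80 to 9.85. After CpG 1 of the 4 fell in DRKO cells and 3 fell in WT cells (limma adjusted p under 0.05). Over all tested genes 5.76% and 13.4% fell. Between DRKO and WT cells after CpG, 0 of the 4 passed. C3ar1 was lower in every DRKO array (5.27 to 5.64) than in every WT array (5.80 to 6.59) on the log2 scale, and so was C5ar1 (4.42 to 4.99 in DRKO against 5.51 to 7.32 in WT). Neither difference passed the test (limma adjusted p at least 0.0607 in each genotype contrast), and the positions of the probes against the deleted parts are not given. The mean log2 level of 12 neutrophil markers ran from 5.43 to 7.06 in DRKO arrays and from 7.02 to 8.84 in WT arrays, with 4 to 10 of the 12 above the array median in DRKO arrays and 9 to 12 in WT arrays. The mean of 11 red pulp macrophage markers was 8.69 in DRKO CpG 3 and 9.01 in DRKO unstimulated 2, and 10.2 to 10.7 in the other 8 arrays. The mean of 3 Y-linked genes was 7.32 to 7.93 in 3 DRKO arrays (DRKO CpG 1, DRKO CpG 2 and DRKO unstimulated 1) and 3.21 to 3.67 in the other 7. Sample titles numbered 20 and over, a stand-in for a batch that the labels mention without assigning, were DRKO CpG 3, DRKO unstimulated 2 and WT CpG 3. Among titles under 20 every DRKO array had the Y-linked signal and no WT array had it. Genotype and Y-linked signal therefore cannot be told apart among those titles. Fits with such a difference as a covariate are given where they were run. Where the covariate follows genotype or CpG, these fits cannot tell it apart from them. The part of these differences in the results below was otherwise not tested. In bulk samples, fewer cells of a type and less RNA per cell cannot be told apart.

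**Figure D1:**
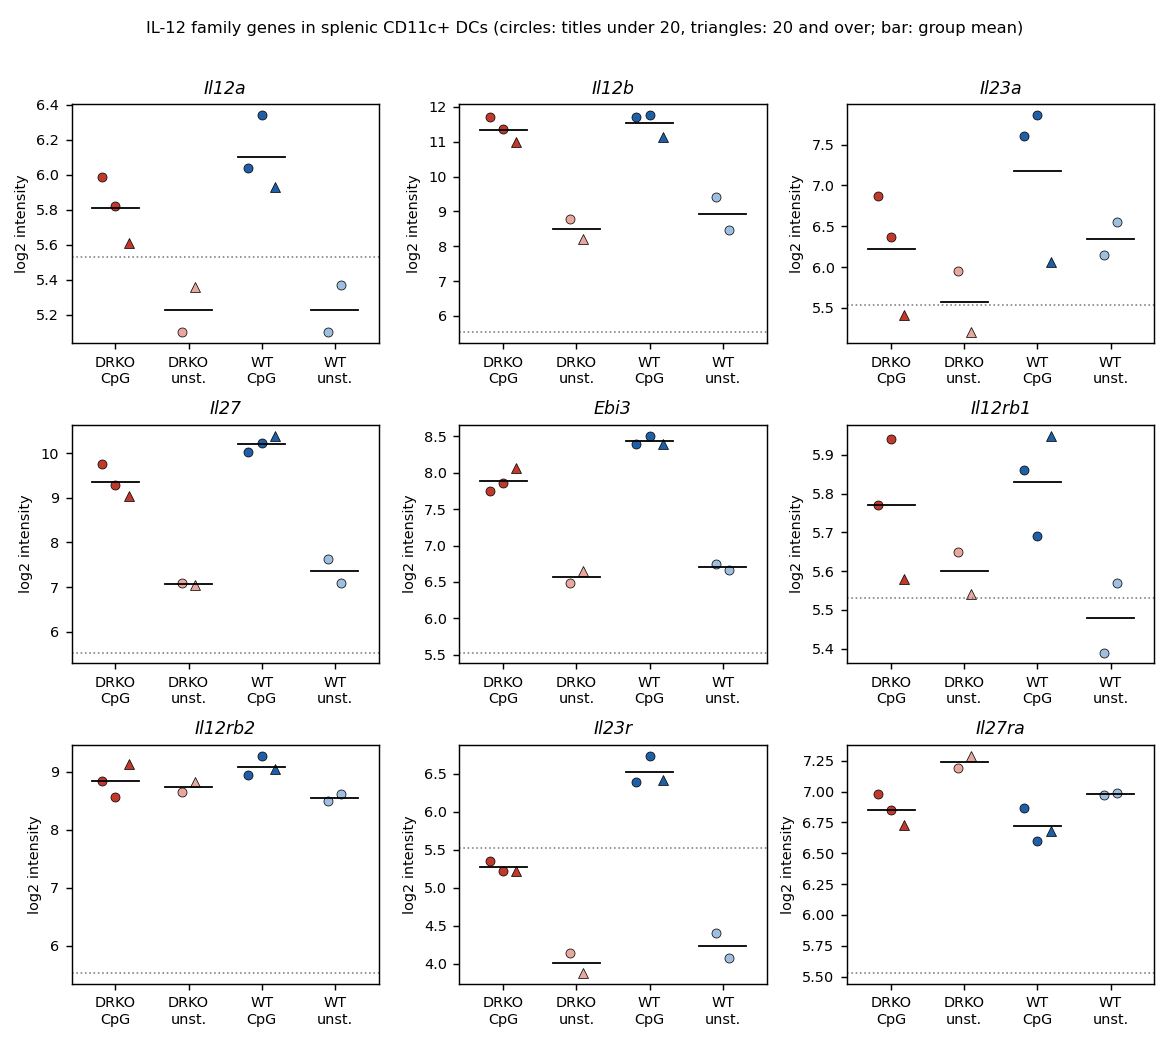
Log2 intensity of each of the 9 genes in each array, for DRKO CpG, DRKO unstimulated, WT CpG and WT unstimulated from left to right. Points are arrays (circles for titles under 20, triangles for 20 and over), bars are group means and the dotted line lies at about the array median. Il12b, Il27, Ebi3 and Il23r stand higher after CpG in both genotypes, and Il23r after CpG is lower in all 3 DRKO arrays than in all 3 WT arrays.

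The family was first compared after CpG with the unstimulated cells. In DRKO cells 4 of the 9 genes rose (Il12b, Il27, Ebi3 and Il23r) and 0 fell, where 4.56% of all tested genes rose and 5.76% fell. In WT cells 6 of the 9 rose, the same 4 with Il12a and Il12rb2, and 0 fell, where 8.24% of all tested genes rose and 13.4% fell. The median log2 difference of the 9 genes was 0.64 in DRKO cells, against -0.04 over all tested genes, and 0.87 in WT cells, against -0.04 over all. Calls are at a limma adjusted p under 0.05 throughout. Il12a entered the test only through CpG arrays and Il23r only through WT CpG arrays. The WT count carries that selection for both genes, and the DRKO count includes Il23r. The members were also chosen with earlier results of these data known. The shares of all tested genes are therefore not an independent comparison for these counts and medians.

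Il12b had log2 levels of 11.71, 11.37 and 10.98 in DRKO CpG arrays and 8.77 and 8.20 in DRKO unstimulated arrays. It had 11.72, 11.76 and 11.14 in WT CpG arrays and 9.42 and 8.46 in WT unstimulated arrays. Every CpG array was above every unstimulated array in both genotypes. The difference CpG minus unstimulated was 2.87 ± 0.32 (SE) on the log2 scale in DRKO cells (7.29-fold, limma adjusted p = 0.000765) and 2.60 ± 0.32 in WT cells (6.08-fold, limma adjusted p = 0.000361). Il12b rose in both genotypes, and the difference between those 2 effects was 0.26 (95% interval -0.72 to 1.25).

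Il12a, the other chain of IL-12, changed less. Its log2 levels were 5.99, 5.82 and 5.61 in DRKO CpG arrays, 5.10 and 5.36 in DRKO unstimulated arrays, 6.04, 6.34 and 5.93 in WT CpG arrays and 5.10 and 5.37 in WT unstimulated arrays. The CpG arrays lay above the unstimulated ones in both genotypes without overlap, and all 4 unstimulated values were below the array medians of 5.50 to 5.56, where a value may be near background since no detection calls were used. In WT cells Il12a rose by 0.87 ± 0.17 on the log2 scale (1.83-fold, limma adjusted p = 0.00453), and the call was lost without WT unstimulated 1 (0.74, limma adjusted p = 0.0584). In DRKO cells the difference was 0.57 ± 0.17 (limma adjusted p = 0.0553). It passed in 6 of 24 alternatives, with limma adjusted p from 0.0278 to 0.662 over all 24, and it was 0.80 among titles under 20 (limma adjusted p = 0.0346) and 0.25 among titles of 20 and over. In the fit of all 10 arrays the 2 effects differed by -0.30 (95% interval -0.82 to 0.22).

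Il27, the IL-27 alpha chain, had log2 levels of 9.75, 9.28 and 9.04 in DRKO CpG arrays and 7.09 and 7.05 in DRKO unstimulated arrays. It had 10.02, 10.23 and 10.40 in WT CpG arrays and 7.64 and 7.09 in WT unstimulated arrays. CpG arrays were higher than unstimulated ones in both genotypes, and the 3 DRKO CpG arrays lay below the 3 WT CpG arrays. Il27 rose after CpG by 2.29 ± 0.22 on the log2 scale in DRKO cells (4.89-fold, limma adjusted p = 0.000363) and by 2.85 ± 0.22 in WT cells (7.22-fold, limma adjusted p = 5.62e-05).

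Ebi3, its partner chain, had log2 levels of 7.75, 7.86 and 8.07 in DRKO CpG arrays and 6.49 and 6.65 in DRKO unstimulated arrays. It had 8.40, 8.51 and 8.39 in WT CpG arrays and 6.74 and 6.67 in WT unstimulated arrays. The pattern was that of Il27, with the DRKO CpG arrays between the unstimulated and the WT CpG arrays. Ebi3 rose after CpG by 1.33 ± 0.12 on the log2 scale in DRKO cells (2.51-fold, limma adjusted p = 0.000344) and by 1.73 ± 0.12 in WT cells (3.32-fold, limma adjusted p = 4.41e-05). A second Ebi3 probe set, not used, lay at 4.06 to 5.22 in all 10 arrays, below the array medians.

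Il23a, the chain particular to IL-23, had log2 levels of 6.87, 6.37 and 5.41 in DRKO CpG arrays, 5.95 and 5.20 in DRKO unstimulated arrays, 7.61, 7.86 and 6.06 in WT CpG arrays and 6.15 and 6.55 in WT unstimulated arrays. CpG and unstimulated arrays overlapped in both genotypes, and the lowest array of 3 groups was the one with a title of 20 or over. The CpG difference was 0.64 ± 0.53 on the log2 scale in DRKO cells (limma adjusted p = 0.513) and 0.82 ± 0.53 in WT cells (limma adjusted p = 0.320), and neither passed. In a fit that blocks on the title series, the arrays of the second series were lower by 1.26 ± 0.18, a size that 0.353% of the tested genes exceeded, and the CpG difference in WT cells was 1.24 ± 0.23 (limma adjusted p = 0.00273) and in DRKO cells 0.43 ± 0.22 (limma adjusted p = 0.237). Without WT CpG 3 the difference in WT cells was 1.38 (limma adjusted p = 0.0464). Il23a also moved with the neutrophil markers, whose mean was 7.06, 6.75 and 5.43 in DRKO CpG arrays, 5.99 and 5.54 in DRKO unstimulated arrays, 8.33, 8.84 and 7.02 in WT CpG arrays and 7.03 and 7.62 in WT unstimulated arrays. With that mean as a covariate the CpG difference was 0.03 in DRKO cells and 0.12 in WT cells (limma adjusted p = 0.945 and 0.679). The tested neutrophil markers themselves had a median CpG difference of 1.14 in DRKO cells and 0.68 in WT cells. The covariate therefore takes up part of the CpG contrast, and this fit cannot tell the 2 apart.

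**Figure D2:**
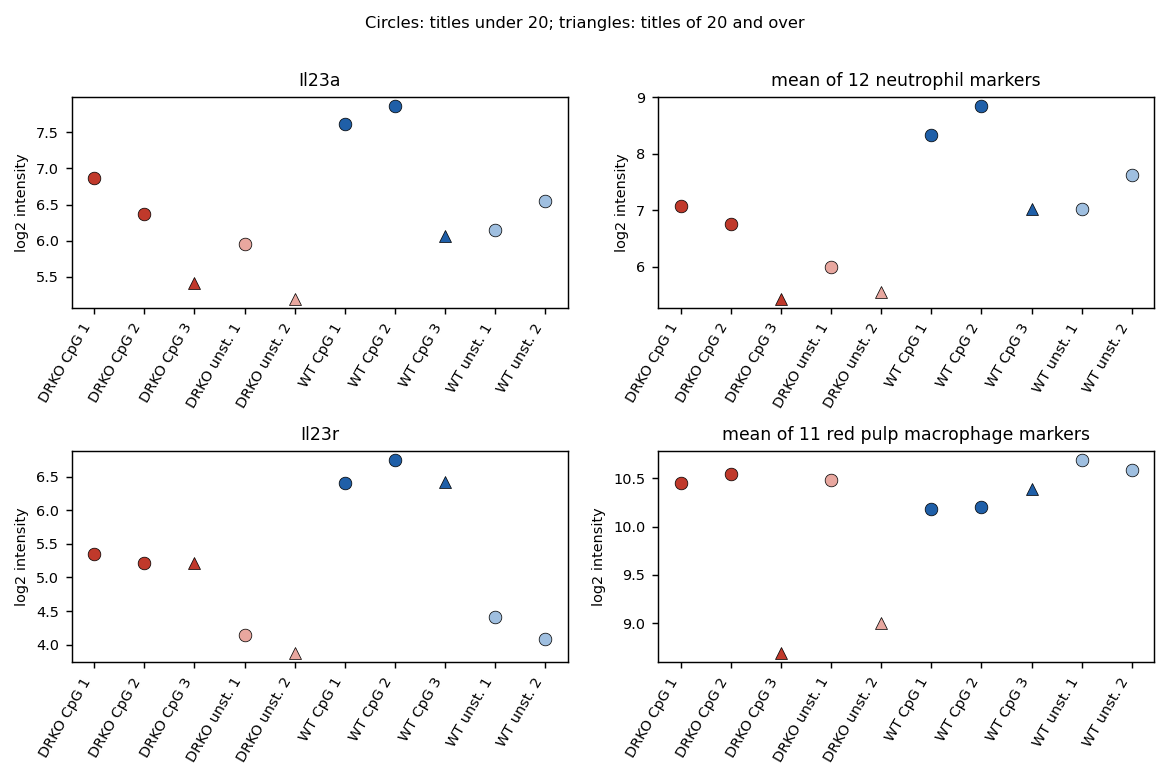
Log2 intensity of Il23a and Il23r and mean log2 intensity of 12 neutrophil and 11 red pulp macrophage markers in each array, with DRKO CpG at the left and WT unstimulated at the right. Circles are titles under 20 and triangles 20 and over. Il23a and the neutrophil mean share their 2 highest arrays, WT CpG 1 and WT CpG 2, while the 3 WT CpG values of Il23r lie together between 6.40 and 6.74.

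Among the receptors, Il23r, the chain that gives the receptor its specificity for IL-23, had the largest CpG difference. Its log2 levels were 5.35, 5.22 and 5.22 in DRKO CpG arrays, 4.14 and 3.88 in DRKO unstimulated arrays, 6.40, 6.74 and 6.42 in WT CpG arrays and 4.41 and 4.08 in WT unstimulated arrays. The 4 groups formed 3 levels without overlap: both unstimulated groups low, DRKO CpG between, WT CpG high. Only the WT CpG arrays exceeded the array median. Il23r rose after CpG by 1.26 ± 0.15 on the log2 scale in DRKO cells (2.39-fold, limma adjusted p = 0.00117) and by 2.28 ± 0.15 in WT cells (4.84-fold, limma adjusted p = 3.77e-05). Since 7 of 10 values lay under the array median, these folds may understate the change of a gene near background.

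Il12rb2, the signalling chain of the IL-12 receptor and the neighbour of Il23r on chromosome 6 with 0 protein-coding genes between them, had log2 levels of 8.84, 8.56 and 9.14 in DRKO CpG arrays, 8.66 and 8.82 in DRKO unstimulated arrays, 8.95, 9.28 and 9.05 in WT CpG arrays and 8.49 and 8.62 in WT unstimulated arrays. The DRKO groups overlapped and the WT groups did not. It rose in WT cells by 0.54 ± 0.17 on the log2 scale (1.46-fold, limma adjusted p = 0.0442) and differed by 0.11 ± 0.17 in DRKO cells (limma adjusted p = 0.768). The WT call was lost with no filter on low values (limma adjusted p = 0.0649), with median centring (0.0627), with the title block (0.0546) and in 8 of the 10 fits that left out 1 array.

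Il12rb1, the chain shared by the receptors of IL-12 and IL-23, stayed within 5.39 and 5.95 on the log2 scale in all 10 arrays. It was above the array median in 9 of them but close to it (medians 5.50 to 5.56), where a value may be near background. Its CpG difference was 0.17 ± 0.14 in DRKO cells (limma adjusted p = 0.513) and 0.35 ± 0.14 in WT cells (limma adjusted p = 0.100). Il27ra, which binds IL-27, had log2 levels of 6.98, 6.85 and 6.73 in DRKO CpG arrays, 7.19 and 7.29 in DRKO unstimulated arrays, 6.87, 6.60 and 6.68 in WT CpG arrays and 6.97 and 6.99 in WT unstimulated arrays. The CpG arrays were the lower ones in both genotypes, with CpG differences of -0.39 ± 0.13 in DRKO cells (limma adjusted p = 0.0772) and -0.26 ± 0.13 in WT cells (limma adjusted p = 0.177). Neither difference passed, at unadjusted p of 0.0107 in DRKO cells and 0.0611 in WT cells.

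**Figure D3:**
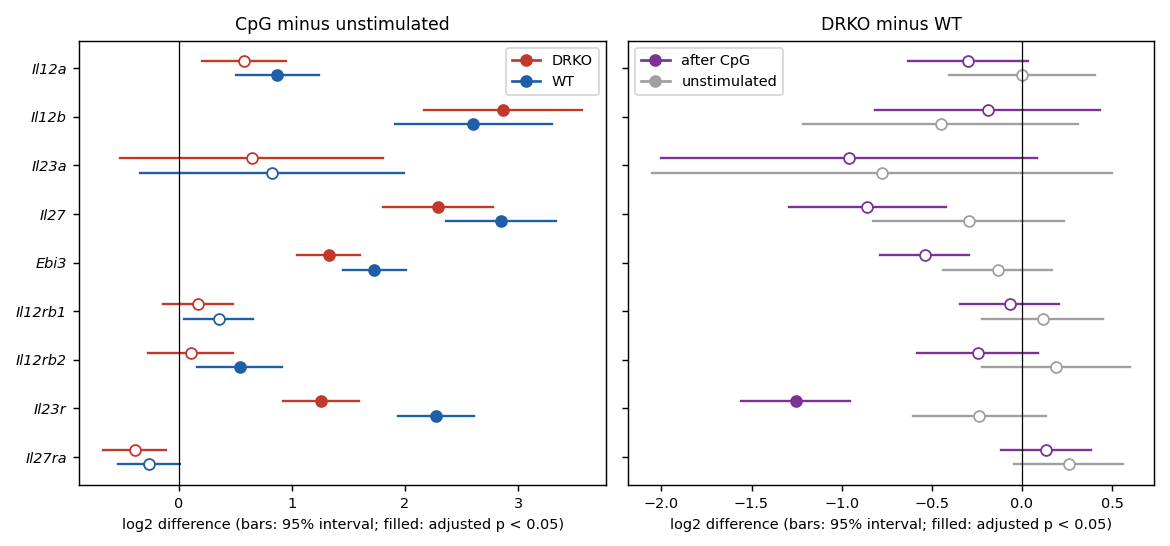
Log2 differences with 95% intervals for the 9 genes: CpG minus unstimulated in DRKO and WT cells (left), and DRKO minus WT after CpG and without stimulation (right). Filled points passed an adjusted p of 0.05. In the right panel the filled point is Il23r after CpG, at -1.26.

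DRKO and WT cells were then compared directly. After CpG, 1 of the 9 genes was lower in DRKO cells and 0 were higher, where 0.0677% of all tested genes (9 genes) were lower and 0.12% (16 genes) were called either way. The gene was Il23r, which fell by 1.26 ± 0.14 on the log2 scale (95% interval -1.56 to -0.95, 0.419 of the WT level, limma adjusted p = 0.00777). Il23r entered the test only through the 3 WT CpG arrays, the higher side of this contrast, and its DRKO CpG values lay below the array median. The count of 1 therefore carries that selection. The difference of Il23r was -1.28 among titles under 20 and -1.20 among titles of 20 and over. The call was lost without WT CpG 1 (-1.32, limma adjusted p = 0.0505), without WT CpG 2 (-1.15, limma adjusted p = 0.0596), without DRKO CpG 2 (-1.23, limma adjusted p = 0.0659) and with the neutrophil covariate (-1.12, limma adjusted p = 0.0872).

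Both IL-27 chains had their 3 DRKO CpG arrays below their 3 WT CpG arrays without passing. The DRKO minus WT difference after CpG was -0.86 ± 0.20 on the log2 scale for Il27 (limma adjusted p = 0.0905) and -0.54 ± 0.11 for Ebi3 (limma adjusted p = 0.0727). Il27 passed without DRKO CpG 1 (-1.05, limma adjusted p = 0.0301), with the Y-linked covariate (-1.04, limma adjusted p = 0.0201) and without the 3 DRKO arrays that have Y-linked signal (-1.17, limma adjusted p = 0.0219). It did not pass in the other 22 of 25 alternatives, with a highest limma adjusted p of 0.372 with the neutrophil covariate. Ebi3 passed with the title block (-0.54, limma adjusted p = 0.0379) and with the macrophage covariate (-0.59, limma adjusted p = 0.0328) and in none of the other 23 alternatives, among them the mean of its probe sets (-0.38, limma adjusted p = 0.174). The difference was unequal between the title series, at -0.61 among titles under 20 and -1.36 among titles of 20 and over for Il27, and at -0.65 and -0.32 for Ebi3. Without the adjustment, 3 of the 9 genes (Il23r, Ebi3 and Il27) had p under 0.05, as did 14.3% of all tested genes.

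Il23a differed by -0.96 ± 0.47 between DRKO and WT cells after CpG (limma adjusted p = 0.391). It was -0.56 without DRKO CpG 3 and -1.52 without WT CpG 3, the ends of the range over fits that left out 1 array. The difference passed with the title block (-0.96 ± 0.20, limma adjusted p = 0.0386) and among titles under 20 (-1.11, limma adjusted p = 0.0479), and it turned to 0.61 ± 0.20 (limma adjusted p = 0.318) with the neutrophil covariate. Il12b differed by -0.19 (95% interval -0.81 to 0.43) and Il12a by -0.30 (95% interval -0.63 to 0.03). Over fits that left out 1 array, the difference ran from -0.39 to -0.002 for Il12b, the smallest without DRKO CpG 3, and from -0.39 to -0.18 for Il12a, the smallest without WT CpG 2. With the neutrophil covariate both turned, to 0.31 for Il12b and 0.023 for Il12a, and neither passed under any alternative. The neutrophil mean was lower in DRKO arrays with little overlap, so fits with this covariate cannot tell it apart from genotype. The differences of Il12rb1, Il12rb2 and Il27ra were -0.07, -0.24 and 0.13, with limma adjusted p of 0.862, 0.508 and 0.646.

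Without stimulation, 0 of the 9 genes differed between DRKO and WT cells by limma, where 0.00752% of all tested genes (1 gene) were called, and 0 had an unadjusted p under 0.05 (4.63% of all tested genes). Il23r differed by -0.24 (95% interval -0.61 to 0.13) and Il12b by -0.45 (95% interval -1.22 to 0.31), both intervals over 2 arrays a group. Leaving out 1 array moved the difference between -0.40 (without WT unstimulated 2) and -0.073 (without WT unstimulated 1) for Il23r, and between -0.93 and 0.029 (without the same arrays) for Il12b. The difference of the CpG effects was called for 0 of the 9 genes by limma (0.00752% of all tested genes), and 2 had an unadjusted p under 0.05, Il23r and Ebi3 (5.65% of all tested genes). The CpG effects on Il23r differed (DRKO minus WT) by -1.02 ± 0.22 on the log2 scale (unadjusted p = 0.000701, limma adjusted p = 0.630), and those on Ebi3 by -0.40 ± 0.18 (limma adjusted p = 0.871). The difference in CpG response between the genotypes therefore did not pass for any member. Averaged over stimulation, Il23r in DRKO cells minus WT cells was -0.75 ± 0.11 (limma adjusted p = 0.0349), so it was lower, as were 0.0902% of all tested genes. That call was lost in 8 of the 10 fits that left out 1 array, and it carries the same selection of Il23r through the WT CpG arrays.

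Genes that transmit or restrain signals from these receptors were tested as a list of 11, of which 10 were tested. In DRKO cells 3 rose and 0 fell after CpG, with a median difference of 0.41, against -0.04 over all tested genes. In WT cells 6 rose and 1 fell, with a median of 0.59, against -0.04 over all. The shares of all tested genes that rose and fell were 4.56% and 5.76% in DRKO cells and 8.24% and 13.4% in WT cells. Stat3, the transcription factor of IL-23 and IL-27 signals, rose by 0.63 ± 0.11 in DRKO cells and by 1.05 ± 0.11 in WT cells on the log2 scale (limma adjusted p = 0.00643 and 0.000181). Socs3, a feedback inhibitor of Stat3, rose by 2.04 ± 0.35 in DRKO cells and by 1.21 ± 0.35 in WT cells (limma adjusted p = 0.00643 and 0.0325). Ptpn2, a phosphatase of Jak kinases and Stat proteins, rose by 0.52 in DRKO cells and by 1.18 in WT cells (limma adjusted p = 0.0222 and 0.000165). Socs1, another feedback inhibitor, rose in WT cells by 1.23 (limma adjusted p = 0.000526) and differed by 0.49 in DRKO cells (limma adjusted p = 0.0766). Il6ra, the receptor chain for IL-6, fell in WT cells by 0.98 (limma adjusted p = 0.00183) and differed by -0.27 in DRKO cells (limma adjusted p = 0.332). Between DRKO and WT cells after CpG, 0 of the 10 passed by limma and 5 had an unadjusted p under 0.05, where 0.12% of all tested genes passed and 14.3% had such a p.

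**Figure D4:**
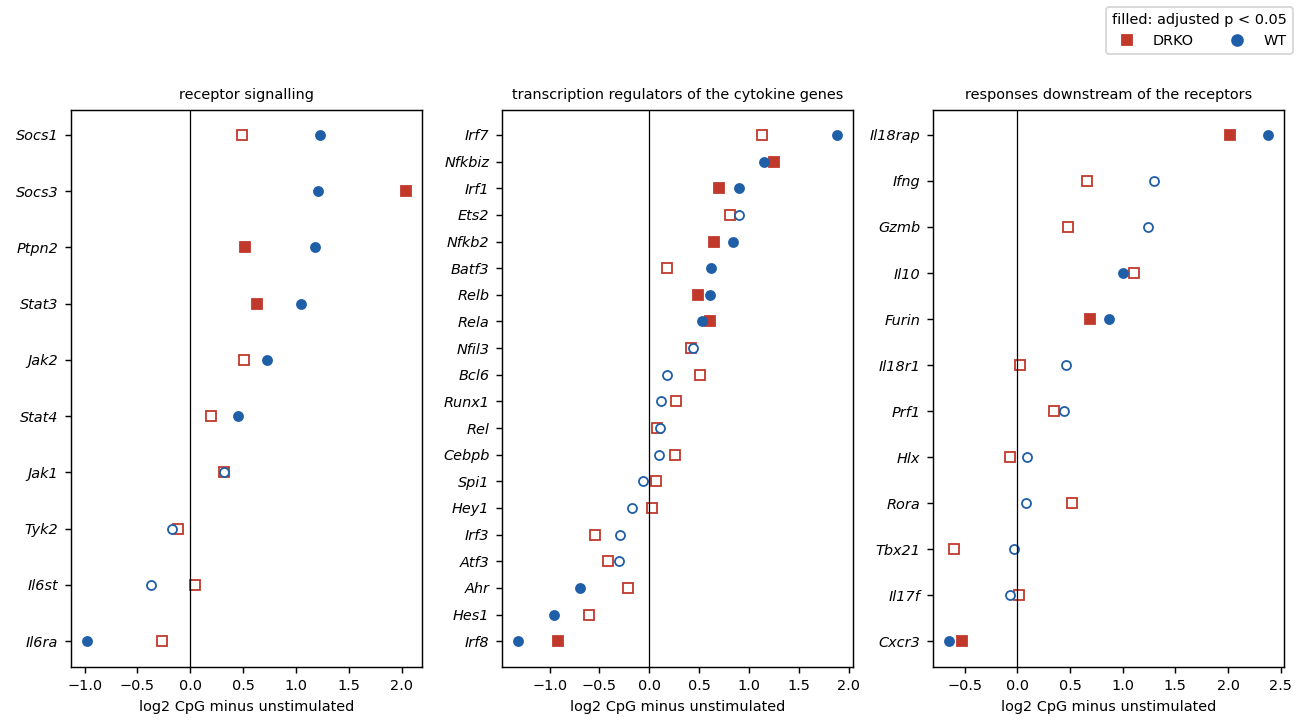
Log2 difference CpG minus unstimulated for each tested gene of 3 lists, squares for DRKO cells and circles for WT cells. Filled symbols passed an adjusted p of 0.05. Socs3, Stat3 and Ptpn2 are filled in both genotypes on the left, and Irf8 is filled and below 0 in both genotypes in the middle panel.

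Of 20 tested transcription regulators of the cytokine genes, 5 rose and 1 fell in DRKO cells (median difference 0.26) and 7 rose and 3 fell in WT cells (median 0.14). Over all tested genes 4.56% rose and 5.76% fell in DRKO cells and 8.24% rose and 13.4% fell in WT cells, with a median of -0.04 in each genotype. Rel, an NF-kB subunit named here after its values were seen, differed by 0.08 in DRKO cells and 0.10 in WT cells on the log2 scale and did not pass (limma adjusted p = 0.737 and 0.584). Nfkbiz, a nuclear coactivator of NF-kB, rose by 1.25 in DRKO cells and by 1.15 in WT cells on the log2 scale (limma adjusted p = 0.00136 and 0.000671). Nfkb2 rose by 0.65 in DRKO cells and by 0.84 in WT cells, Relb by 0.49 in DRKO cells and by 0.61 in WT cells, and Rela by 0.61 in DRKO cells and by 0.53 in WT cells. Irf8, needed for the cDC1 lineage and an activator of Il12b, fell by 0.91 in DRKO cells and by 1.32 in WT cells (limma adjusted p = 0.00745 and 0.000402). The mean log2 level of 8 cDC1 markers, Irf8 among them, was also lower after CpG. It was 8.77 to 8.87 in DRKO CpG arrays, 9.30 to 9.75 in DRKO unstimulated arrays, 8.45 to 8.63 in WT CpG arrays and 9.77 to 9.78 in WT unstimulated arrays. The markers were not uniform, beside the shares of all tested genes given above. In DRKO cells 4 of the 8 fell and 0 rose. In WT cells 5 fell and 1 rose, Batf3, by 0.61 (limma adjusted p = 0.0173).

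Of 12 tested genes that sense CpG, 2 rose and 0 fell in DRKO cells and 3 rose and 0 fell in WT cells. Over all tested genes 4.56% rose and 5.76% fell in DRKO cells, and 8.24% rose and 13.4% fell in WT cells. Myd88, the adaptor of Tlr9, rose by 0.78 in DRKO cells and by 0.91 in WT cells on the log2 scale (limma adjusted p = 0.00643 and 0.00107), and Traf6, the ubiquitin ligase downstream of it, by 0.86 in DRKO cells and by 0.60 in WT cells (limma adjusted p = 0.00896 and 0.0231). Tab2 rose in WT cells by 0.47 (limma adjusted p = 0.0151) and differed by 0.31 in DRKO cells (limma adjusted p = 0.117). Of 12 tested genes known to respond downstream of the receptors, 2 rose and 1 fell in DRKO cells and 3 rose and 1 fell in WT cells, beside the same shares of all tested genes. Il18rap, a chain of the IL-18 receptor, rose by 2.02 in DRKO cells and by 2.38 in WT cells (limma adjusted p = 0.00163 and 0.000242). Furin, a protease, rose by 0.69 in DRKO cells and by 0.87 in WT cells. Cxcr3, a chemokine receptor, fell by 0.52 in DRKO cells and by 0.65 in WT cells. Il10 rose in WT cells by 0.999 (limma adjusted p = 0.0466) and differed by 1.10 in DRKO cells without passing (limma adjusted p = 0.0526). Between DRKO and WT cells after CpG, limma called 0 genes of these 3 lists, with an unadjusted p under 0.05 for 3 of 20 regulators, 2 of 12 sensing genes and 2 of 12 downstream genes, where 14.3% of all tested genes had one.

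For each member that CpG changed, the genes with the closest pattern were found by the root-mean-square difference of centred log2 values over the 10 arrays, where a smaller value is closer. For Il23r they were Tnfrsf9, Glipr2 and Nupr1 (0.211, 0.229 and 0.247, with a median of 1.035 over all genes). For Il12b they were Mab21l3, Il6 and Batf (0.289, 0.293 and 0.316, median 1.415). For Il27 they were Casp4, Gbp5 and Cd40 (0.220, 0.267 and 0.269, median 1.353), and for Ebi3 Atp6v0a1, Cd276 and Adgrg6 (0.146, 0.163 and 0.167, median 0.822). Il12a was closest to Swap70, Dusp16 and Acsl5 (0.096, 0.120 and 0.129, median 0.461), and Il12rb2 to Tpm1, Phf6 and Cdc42ep3 (0.093, 0.094 and 0.107, median 0.332).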

How the data were processed

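Splenic CD11c+ cells of 10 samples were measured on Affymetrix Mouse Gene 2.0 ST arrays, 1 array per sample. The authors deposited 1 log2 intensity for each probe set, computed by RMA (Affymetrix Expression Console, per the submitters' processing notes), without tool versions or annotation in the sources used here. RMA makes arrays comparable in distribution, so a change shared by most genes would not show.

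Of 41345 probe sets, 23521 had 1 symbol, 1814 several and 16010 none. Of those with 1 symbol, 23328 matched a RefSeq gene and covered 21994 genes, and the rest were left out. For the 1077 genes with several such probe sets the one with the highest mean was taken. Genes above the array median in at least 2 of 10 arrays (13298) were fitted with limma 3.58.1 in R 4.3.3 as 4 group means over all 10 arrays, with 6 residual and 4.49 prior degrees of freedom. Tests were two-sided, with Benjamini-Hochberg adjustment over the tested genes and calls below an adjusted p of 0.05. The ± sign marks standard errors. Sample numbers follow accession order within a group. The fit was tested on simulated data. The number of arrays limits the precision.

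The members, the gene lists and the naming rule were chosen with earlier results of these data known. Named were the 9 members, C3ar1 and C5ar1, up to 5 called genes of the smallest p from each of 4 pathway lists, and the 3 closest genes to each member that CpG changed. The looser kappa B form was searched first, and the stricter consensus replaced it after its matches had been seen. Alternatives were 23 planned settings and 2 added after seeing the data.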

Additional observations from a re-analysis of the deposited data

How the results depend on the processing

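Over 25 alternatives, 1215 of 1305 values of single members kept their direction and side of the threshold. The counts of members called after CpG relative to unstimulated stayed at 3 to 5 of 9 in DRKO cells and 4 to 7 in WT cells, and 0 were called under every alternative run for DRKO minus WT unstimulated and for the difference of CpG effects. After CpG, the DRKO minus WT count of 1 became 0 with the stricter filter, which left Il23r untested, and with the neutrophil covariate, 2 among titles under 20, with the macrophage covariate, with the Y-linked covariate and without the DRKO arrays that have Y-linked signal, and 3 with the title block. Leaving out 1 array gave 0 to 2. Averaged over stimulation, the count of 1 became 0 with the stricter filter, among titles under 20, with the neutrophil covariate, with the macrophage covariate and without the DRKO arrays of the second title series, 3 with the Y-linked covariate and 2 without the DRKO arrays that have Y-linked signal. Leaving out 1 array gave 0 to 1.

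Over all tested genes, the calls moved by more than 1.5 times. DRKO minus WT after CpG called 16 genes (2 to 794 over the alternatives, the highest with the Y-linked covariate), unstimulated 1 (0 to 404, likewise), averaged over stimulation 19 (1 to 983, the highest without the DRKO arrays that have Y-linked signal) and the difference of CpG effects 1 (0 to 2). CpG called 1372 genes in DRKO cells (408 to 1907) and 2873 in WT cells (1276 to 3519).

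In 42 values the direction turned, in each case for a difference that did not pass. With the neutrophil covariate, DRKO minus WT after CpG was 0.61 for Il23a, 0.31 for Il12b and 0.023 for Il12a. Unstimulated it was 0.70 for Il23a and 0.024 for Il12b, and averaged 0.66 for Il23a, 0.17 for Il12b and 0.16 for Il12a. For Il12a unstimulated, where the main value was near 0, it was -0.013 with quantile normalization, -0.017 with median centring, -0.022 with the Y-linked covariate, -0.13 among titles under 20 and -0.13 without the DRKO arrays of the second series. For Il12rb1 after CpG it was 0.083 among titles under 20 and 0.024 without the DRKO arrays of the second series, and averaged -0.083 with the Y-linked covariate and -0.096 without the DRKO arrays that have Y-linked signal. For Il12rb2 without those arrays it was 0.045 after CpG and 0.16 averaged, and 0.15 averaged with the Y-linked covariate. The difference of CpG effects for Il12b was -0.027 with the title block and -0.035 among titles under 20. Leaving out 1 array, the DRKO minus WT difference ran from -0.16 to 0.024 for Il12rb1 after CpG, from -0.14 to 0.14 for Il12a and from -0.93 to 0.029 for Il12b unstimulated, and averaged from -0.021 to 0.070 for Il12rb1 and from -0.099 to 0.044 for Il12rb2. The difference of CpG effects ran from -0.22 to 0.74 for Il12b and from -0.74 to 0.22 for Il23a, and the CpG difference of Il12rb2 in DRKO cells from -0.038 to 0.25. The causes were not tested. With 2 arrays in each unstimulated group, precision there is lowest.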
